A study of Rattus norvegicus with 9 samples.

Results

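Voltage-gated ion channel subunits and their close relatives were examined in rat retinal ganglion cells, the neurons whose axons form the optic nerve. The set held the genes named as Kcn, Scn or Cacn subunits that had a transcript cluster, the array's group of probes for a transcript, carrying that symbol and no other. Each gene was read from its cluster of highest mean. This gave 121 of 18166 genes with such a cluster, in 19 families. Of the 121, 61 passed the filter on level that precedes the tests, and 60 lay below it.

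The study asked how forms of Set-β alter gene expression in these neurons, by transfecting purified cells and hybridising their amplified RNA to Affymetrix Rat Gene arrays. The wt-SetB group carried wild-type Set-β, the myr-SetB group carried myr-Set-β, and the mCherry group carried the red fluorescent protein mCherry as its control. Each of the 3 groups had 3 arrays, and every group also received the pMAX-GFP plasmid. The cells came from Sprague Dawley rats at postnatal day 4 and were purified on antibody-coated dishes. They were electroporated, sorted for GFP on the following day and grown on laminin, with RNA taken at day 3 after transfection. Set acts in the nucleus as a chaperone of histones and also inhibits a protein phosphatase, and the prefix myr stands for myristoylation, a lipid modification that brings proteins to membranes. The cells were thus immature neurons in culture, sorted on the co-transfected GFP and not on Set-β itself. The sources used here do not name the promoter that drove the constructs. No cluster carried the symbol Set alone, so the level of the transfected gene was not checked. The labels call the arrays biological replicates and do not tell if litters or cultures were separate. The p-values therefore cover only the spread between these arrays, part of which may be technical.

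Neurons fire when sodium channels open and drive the membrane positive, and potassium channels then bring it back. Calcium channels turn the voltage change into a chemical signal in terminals and dendrites. A pore-forming alpha subunit makes the channel, and auxiliary subunits set where it goes, how much of it reaches the surface and how fast it opens and closes. The symbols Kcnj and Kcnk name inward rectifiers and tandem-pore leak channels, which set the resting potential and are not opened by voltage in the same way.

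The level of ganglion cell markers was read from 15 genes, all of which were on the array and passed the filter. Their summed level was 12.9 to 13.69 in wt-SetB, 12.96 to 13.8 in myr-SetB and 13.52 to 14.3 in mCherry, as log2 of the summed intensity. Stmn2 and Gap43, the most abundant of them, weigh most in this sum, and transcription factors such as Pou4f1 weigh little. All 15 had a lower mean in wt-SetB and in myr-SetB than in mCherry, with 0 and 3 of them at an unadjusted limma p under 0.05. Over all tested clusters 65.5% were lower in wt-SetB and 63.9% in myr-SetB, and 10.2% and 9.79% had such a p. In bulk samples such as these, fewer cells of a type and less RNA per cell cannot be told apart. Most of these markers were abundant, and all clusters at or above the 75th percentile of level had median differences of -0.36 in both comparisons. The part of this trend with level in the marker values was not tested. The replicate 1 arrays stood apart from the rest in summed levels of other cell markers. The summed level of 8 glial markers was 9.46 in wt-SetB replicate 1, 9.92 in myr-SetB replicate 1 and 9.76 in mCherry replicate 1, against 11.46 to 12.28 on the other 6 arrays. Most of that distance lay in the intermediate filament gene Vim, and other genes of the list did not follow. Pdgfra and Olig2 had their highest value of each group on replicate 1. Aqp4, Gfap, Rlbp1 and Slc1a3 had their highest value of all arrays on myr-SetB replicate 1. Of these genes only Aqp4 passed the filter. For 9 endothelial, mural and fibroblast markers the sums were 9.86, 10.03 and 9.68 on the same replicate 1 arrays, against 10.49 to 11.24 on the others. Pdgfrb, Rgs5, Cspg4, Col1a2 and Col3a1 were each lowest on replicate 1 of every group, while the endothelial gene Cdh5 was highest there. The arrays also differed in signal range. The span between the 10th and 90th percentiles of log2 intensity was 4.12 to 4.21 in wt-SetB, 3.82 to 4.46 in myr-SetB and 4.29 to 4.54 in mCherry, with myr-SetB replicate 1 the narrowest and mCherry replicate 1 the widest. Summed microglial markers were 10.49 to 10.5 on the replicate 1 arrays and 10.9 to 11.23 on the others. Not every gene of that list followed, as C1qa had its highest value on myr-SetB replicate 1. Amacrine and horizontal markers summed to 9.95 to 10.16 in wt-SetB, 10.07 to 10.16 in myr-SetB and 10.17 to 10.49 in mCherry. Photoreceptor and bipolar markers summed to 9.41 to 9.65, 9.4 to 9.51 and 9.37 to 9.46 in the same groups.

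The promoters of Kcna2, Cacna2d1 and Cacng2 are shown because these genes are among the subunits with the smallest p-values below and because their sequences differ in GC content. Each runs from 250 bases before to 50 after the RefSeq gene start in build GRCr8, and capitals mark GC boxes (GGGCGG or CCGCCC) and TATA boxes (TATAAA or TTTATA), searched on both strands. The Kcna2 promoter is at chr2:197393280-197393579 on the plus strand, that of Cacna2d1 at chr4:20330098-20330397 on the minus strand and that of Cacng2 at chr7:111577708-111578007 on the minus strand.
Kcna2: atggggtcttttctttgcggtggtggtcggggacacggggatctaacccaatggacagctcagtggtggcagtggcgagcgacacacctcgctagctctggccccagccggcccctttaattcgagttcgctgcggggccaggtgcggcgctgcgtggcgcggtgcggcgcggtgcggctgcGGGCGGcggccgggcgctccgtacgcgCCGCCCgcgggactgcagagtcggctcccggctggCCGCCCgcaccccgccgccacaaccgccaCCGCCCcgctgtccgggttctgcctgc
Cacna2d1: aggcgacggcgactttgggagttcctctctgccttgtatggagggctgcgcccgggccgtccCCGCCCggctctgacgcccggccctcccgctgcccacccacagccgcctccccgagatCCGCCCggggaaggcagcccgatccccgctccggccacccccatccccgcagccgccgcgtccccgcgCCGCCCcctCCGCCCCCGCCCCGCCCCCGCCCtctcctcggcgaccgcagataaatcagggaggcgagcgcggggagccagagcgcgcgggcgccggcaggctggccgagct
Cacng2: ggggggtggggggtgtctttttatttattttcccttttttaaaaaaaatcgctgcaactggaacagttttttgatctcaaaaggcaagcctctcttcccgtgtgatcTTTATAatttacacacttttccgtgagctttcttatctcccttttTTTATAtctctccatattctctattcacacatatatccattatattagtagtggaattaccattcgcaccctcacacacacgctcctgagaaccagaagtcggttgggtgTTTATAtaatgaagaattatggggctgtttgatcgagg
The Kcna2 promoter held 4 GC boxes and a GC content of 73.3%, and that of Cacna2d1 held 7 GC boxes, some of them overlapping or adjoining, and 78.3%. The Cacng2 promoter held 0 GC boxes, 3 TATA box matches and a GC content of 39.0%. All 3 matches were TTTATA, the form on the other strand, and the last lay after the gene start, so they need not be working TATA boxes. Promoters in the RefSeq table were found for 84 of the 121 members. A GC box was present in 51.2% of these 84 and in 34.9% of all 27457 promoters, and a TATA box in 3.57% (Cacng2, Kcnj1 and Kcnj13) and 14.3%. The median GC content was 60.8% in member promoters and 52.3% in all promoters, and its part in these shares was not tested. The cyclic AMP response element TGACGTCA was in none of the member promoters and in 1.91% of all promoters. The left part of the RE1 element, TTCAGCACC, was in 2.38% of member promoters (Cacng3 and Kcnh6) and in 0.379% of all promoters. These are matches of letters in a fixed window.

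In myr-SetB against mCherry, the lower values of largest size belonged to a sodium channel beta subunit (Scn3b, -1.21), a glutamate receptor partner (Cacng2, -1.02), a partner of A-type channels (Kcnip1, -0.94) and a sodium channel pore (Scn2a, -0.86), as differences of log2 intensity. In wt-SetB against mCherry they belonged to Scn3b (-0.98), the large-conductance potassium channel Kcnma1 (-0.73), Kcnip1 (-0.69) and Cacng2 (-0.62). The potassium channel Kcna2 had the smallest p in both. Several of these values rested on single arrays. Without mCherry replicate 1, Kcnip1 was -0.42 in myr-SetB and -0.16 in wt-SetB, and the wt-SetB values of Kcnma1 and Cacng2 were -0.27 and -0.30. Without myr-SetB replicate 1, Scn3b and Scn2a were -0.75 and -0.50 in myr-SetB. Leak channels and inward rectifiers lay to both sides of mCherry. None of these differences passed the test across all clusters. With the filter set at the median of all cluster means, a mean log2 intensity of 6.65, 18343 clusters were tested with limma on all 9 arrays and adjusted by the Benjamini-Hochberg method. Among the members just inside were Kcnip4 at 6.67, Kcnj10 at 6.67 and Kcnk6 at 6.69, and just outside Cacna1e, Cacnb2 and Scn8a, each at 6.63. No channel subunit passed an adjusted p of 0.05 in any comparison, and neither did any other cluster (0% of 18343). At an unadjusted p under 0.05, limma counted 1 of 61 subunits in wt-SetB against mCherry, or 1.64%, against 10.2% of all tested clusters. It was a lower one, as were 7.13% of clusters, and 0 subunits were higher, against 3.04%. In myr-SetB against mCherry it counted 5 of 61, or 8.2%, against 9.79% of all clusters. Of these 4 were lower (6.56%, against 6.92%) and 1 was higher (1.64%, against 2.87%). In myr-SetB against wt-SetB it counted 0 of 61, against 1.13% of all clusters, with 0.567% lower and 0.567% higher. The share of subunits was thus below or near the background in each comparison. The count in wt-SetB against mCherry was 8 without mCherry replicate 2, 0 without mCherry replicate 3 or wt-SetB replicate 3, and 2 without myr-SetB replicate 1 or 3. In myr-SetB against mCherry it was 13 without mCherry replicate 2, 12 without myr-SetB replicate 3, 1 without myr-SetB replicate 1, 2 without mCherry replicate 1 or 3, and 3 without wt-SetB replicate 1, 2 or 3 or myr-SetB replicate 2. With neither mCherry replicate 1 nor myr-SetB replicate 1 the counts were 1 and 2. Single differences also depended on mCherry replicate 1. Without it 11 of 61 subunits in wt-SetB and 3 in myr-SetB turned to the other side of mCherry, and another 34 and 38 moved by over 1.5 times. Without myr-SetB replicate 1, 8 of the myr-SetB differences turned and 28 moved by as much. The standard error of a subunit's difference was 0.14 to 0.44, with a median of 0.23. The comparisons of wt-SetB and of myr-SetB with mCherry share the same 3 mCherry arrays.

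Kcna2, a pore-forming subunit of the Shaker family of delayed potassium channels found along axons, had the smallest p of all members in both comparisons with mCherry. Its log2 intensity was 7.5, 7.45 and 7.06 in wt-SetB, 7.31, 7.03 and 7.01 in myr-SetB, and 7.72, 7.83 and 8.03 in mCherry, on replicates 1, 2 and 3. Every mCherry array lay above every wt-SetB and myr-SetB array. The difference from mCherry was -0.53 ± 0.19 (SE, n = 3 arrays a group) in wt-SetB, with a 95% interval of -0.95 to -0.11, an unadjusted limma p of 0.0195 and an adjusted p of 0.447. It was -0.75 ± 0.19 in myr-SetB, with an interval of -1.17 to -0.33, an unadjusted limma p of 0.00311 and an adjusted p of 0.447. On the linear scale these were levels 30.6% and 40.3% lower than in mCherry. The median difference of all tested clusters was -0.18 and -0.16 in these comparisons. Leaving out any single array kept the Kcna2 difference between -0.61 and -0.39 in wt-SetB and between -0.84 and -0.66 in myr-SetB. With only replicates 2 and 3 it was -0.68 in wt-SetB and -0.91 in myr-SetB.

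**Figure D1:**
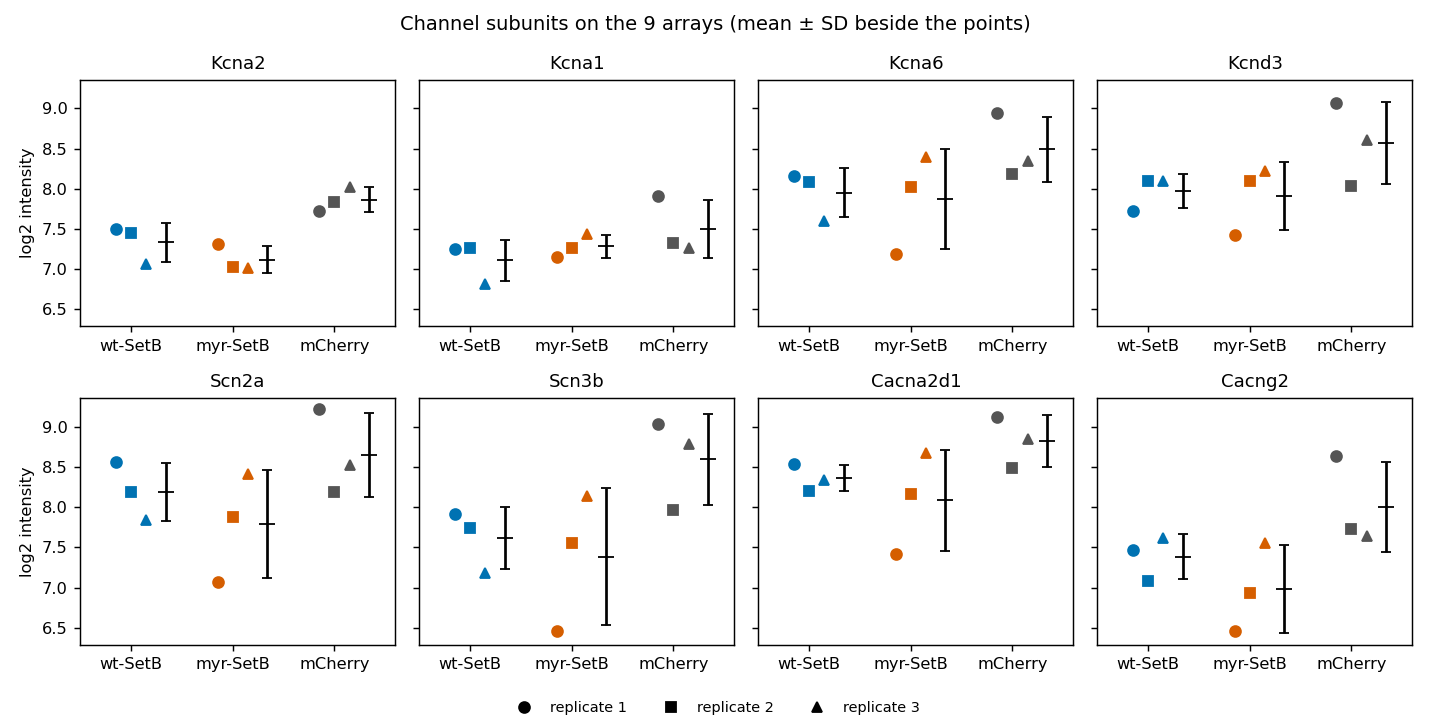
Log2 intensity of 8 subunits on the wt-SetB, myr-SetB and mCherry arrays, with a symbol for each replicate and the mean ± SD (n = 3) beside the points. For Kcna2 all mCherry arrays (7.72 to 8.03) lie above all wt-SetB (7.06 to 7.5) and myr-SetB (7.01 to 7.31) arrays, whereas mCherry replicate 1 is the highest array for the other 7 subunits.

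The other Shaker subunits that passed the filter were Kcna1, Kcna3, Kcna4, Kcna6 and Kcna7. Kcna1, which pairs with Kcna2 in axonal channels, had 7.26, 7.26 and 6.82 in wt-SetB, 7.15, 7.26 and 7.43 in myr-SetB, and 7.91, 7.32 and 7.26 in mCherry. Its wt-SetB arrays lay just below those of mCherry and its myr-SetB arrays overlapped them. The difference was -0.39 ± 0.22 in wt-SetB and -0.22 ± 0.22 in myr-SetB, and the wt-SetB value was -0.18 without mCherry replicate 1 and -0.24 without wt-SetB replicate 3, while the myr-SetB value was -0.01 without mCherry replicate 1. Kcna6 was 8.16, 8.09 and 7.6 in wt-SetB, 7.18, 8.03 and 8.4 in myr-SetB, and 8.95, 8.19 and 8.34 in mCherry. The differences were -0.54 ± 0.34 and -0.62 ± 0.34, and myr-SetB replicate 1 was the lowest of the 9 arrays. Without mCherry replicate 1 they were -0.31 and -0.40, and without myr-SetB replicate 1 the myr-SetB value was -0.28. Kcna3, a channel also known from T cells, had 6.52, 7.04 and 6.74 in wt-SetB, 6.81, 6.89 and 7.04 in myr-SetB, and 6.62, 7.41 and 7.03 in mCherry. Kcna4, which inactivates fast, had 7.13, 7.13 and 7.13 in wt-SetB, 7.41, 7.13 and 6.90 in myr-SetB, and 7.45, 6.97 and 7.48 in mCherry. Kcna3 and Kcna4 differed by -0.25 to -0.11 in both comparisons, with overlap between groups, and leaving out 1 array gave Kcna3 values of -0.45 to -0.06 in wt-SetB and -0.31 to 0.08 in myr-SetB, and Kcna4 values of -0.34 to -0.08 and -0.32 to -0.03. The remaining member, Kcna7, described as a muscle channel, differed by 0.30 and 0.33, or 0.11 and 0.21 without replicate 1 of wt-SetB and of myr-SetB. Of the 6 Shaker subunits 5 were lower in each comparison with mCherry, and 1, Kcna2, had an unadjusted p under 0.05.

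Kcnd3, which forms the fast-inactivating A-type current that delays a spike, had 7.73, 8.1 and 8.09 in wt-SetB, 7.43, 8.1 and 8.22 in myr-SetB, and 9.06, 8.04 and 8.61 in mCherry. The differences were -0.60 ± 0.30 in wt-SetB and -0.65 ± 0.30 in myr-SetB, and mCherry replicate 2 lay below arrays of both other groups. Without mCherry replicate 1 they were -0.35 and -0.41, and without myr-SetB replicate 1 the myr-SetB value was -0.41. Kcnip1, a calcium-binding partner of these A-type channels, had 6.79, 6.44 and 6.67 in wt-SetB, 6.24, 6.07 and 6.83 in myr-SetB, and 8.37, 6.59 and 7.00 in mCherry. Its difference of -0.94 ± 0.42 in myr-SetB was -0.42 without mCherry replicate 1. In wt-SetB it was -0.69 ± 0.42, and -0.16 without that array. Kcnip3 and Kcnip4, relatives of Kcnip1, differed from mCherry by -0.30 to 0.10. Kcnip4 had 6.79, 6.63 and 6.06 in wt-SetB, 7.14, 5.91 and 7.09 in myr-SetB, and 7.41, 6.75 and 6.23 in mCherry, with no order of the groups, and its differences of -0.30 and -0.08 were 0.01 and 0.23 without mCherry replicate 1. Kcnab2, a cytoplasmic beta subunit of Shaker channels, had 6.79, 6.79 and 6.74 in wt-SetB, 7.10, 6.66 and 7.05 in myr-SetB, and 7.12, 6.95 and 6.99 in mCherry, and its wt-SetB arrays lay below all those of mCherry. Its differences were -0.24 in wt-SetB and -0.08 in myr-SetB, where the value was 0.05 without myr-SetB replicate 2. The fast Shaw subunits Kcnc1 and Kcnc2, which let neurons fire at high rates, differed by -0.31 and -0.38 in wt-SetB and by -0.32 and -0.56 in myr-SetB. Kcnc1 had 7.02, 6.88 and 7.04 in wt-SetB, 6.88, 6.90 and 7.14 in myr-SetB, and 7.15, 7.05 and 7.66 in mCherry. Kcnc2 had 6.60, 6.75 and 6.90 in wt-SetB, 6.43, 6.60 and 6.69 in myr-SetB, and 7.92, 6.73 and 6.74 in mCherry, where mCherry replicate 1 stood more than 1 log2 unit above the 2 other mCherry arrays. Without that array the Kcnc2 differences were 0.02 in wt-SetB and -0.16 in myr-SetB, and without mCherry replicate 3 those of Kcnc1 were -0.12 and -0.13.

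The ether-a-go-go subunit Kcnh7 had 7.61, 7.3 and 7.36 in wt-SetB, 7.01, 7.39 and 7.51 in myr-SetB, and 8.45, 7.45 and 7.8 in mCherry. Its differences were -0.48 ± 0.27 and -0.60 ± 0.27, and -0.21 and -0.33 without mCherry replicate 1. Kcnq3, a subunit of the M-current that restrains repeated firing, had 7.34, 7.21 and 7.41 in wt-SetB, 7.19, 7.13 and 7.44 in myr-SetB, and 8.13, 7.26 and 7.39 in mCherry, and differed by -0.28 ± 0.24 in wt-SetB and -0.34 ± 0.24 in myr-SetB. Without mCherry replicate 1 these were -0.01 and -0.07. Kcnma1, the large-conductance channel that calcium and voltage open together, had 8.05, 7.53 and 7.15 in wt-SetB, 7.47, 7.58 and 7.77 in myr-SetB, and 9.23, 7.76 and 7.92 in mCherry. The Kcnma1 differences were -0.73 ± 0.39 and -0.70 ± 0.39, and -0.27 and -0.24 without mCherry replicate 1. Here too 1 mCherry array lay far above the other 8. The small-conductance calcium-activated channels Kcnn1 and Kcnn3 were higher, by 0.22 and 0.07 in wt-SetB and by 0.13 and 0.43 in myr-SetB, without an unadjusted p under 0.05. Without mCherry replicate 3 the Kcnn1 values were 0.12 and 0.04, and those of Kcnn3 were -0.10 and 0.26.

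Among sodium channels, Scn2a, the alpha subunit that predominates in immature axons, had 8.56, 8.19 and 7.84 in wt-SetB, 7.08, 7.87 and 8.42 in myr-SetB, and 9.22, 8.19 and 8.53 in mCherry. The groups overlapped, and myr-SetB replicate 1 was the lowest array and mCherry replicate 1 the highest. The differences from mCherry were -0.45 ± 0.38 and -0.86 ± 0.38. The wt-SetB value was -0.17 without mCherry replicate 1 and -0.28 without wt-SetB replicate 3, and the myr-SetB value was -0.57 without mCherry replicate 1 and -0.50 without myr-SetB replicate 1. Scn9a, an alpha subunit best known from pain-sensing neurons, had 7.22, 6.88 and 6.65 in wt-SetB, 7.00, 6.99 and 7.21 in myr-SetB, and 8.05, 7.08 and 7.15 in mCherry. It differed by -0.51 ± 0.28 in wt-SetB and by -0.36 ± 0.28 in myr-SetB, or -0.20 and -0.05 without mCherry replicate 1. The other alpha subunits analysed, Scn1a, Scn4a, Scn7a, Scn8a, Scn10a and Scn11a, had means below the filter.

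Scn3b, an auxiliary beta subunit that modulates sodium channel gating, had the largest difference of all tested subunits in both comparisons with mCherry. Its values were 7.92, 7.75 and 7.19 in wt-SetB, 6.46, 7.56 and 8.14 in myr-SetB, and 9.04, 7.96 and 8.79 in mCherry. All wt-SetB arrays lay below all mCherry arrays, while myr-SetB replicate 3 lay above mCherry replicate 2. The difference was -0.98 ± 0.44 in wt-SetB, with an unadjusted limma p of 0.0553, and -1.21 ± 0.44 in myr-SetB, with an unadjusted limma p of 0.0236, and the adjusted p was 0.447 in both. Without myr-SetB replicate 1 the myr-SetB value was -0.75, and with only replicates 2 and 3 the values were -0.91 and -0.53. Over the 9 arrays Scn3b also had the widest range of any member, 2.58 log2 units. Scn2b had 6.47, 6.99 and 7.38 in wt-SetB, 7.49, 7.09 and 7.23 in myr-SetB, and 7.35, 6.89 and 7.26 in mCherry, and Scn4b had 6.79, 6.81 and 6.71 in wt-SetB, 6.61, 6.67 and 7.13 in myr-SetB, and 6.60, 6.71 and 6.89 in mCherry. These beta subunits overlapped between groups and differed by -0.22 and 0.04 in wt-SetB and by 0.10 and 0.07 in myr-SetB. All 4 of these values turned with the loss of 1 array, to 0.02 for Scn2b without wt-SetB replicate 1, -0.03 for Scn4b without mCherry replicate 1, -0.04 for Scn2b without mCherry replicate 2 and -0.09 for Scn4b without myr-SetB replicate 3.

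**Figure D2:**
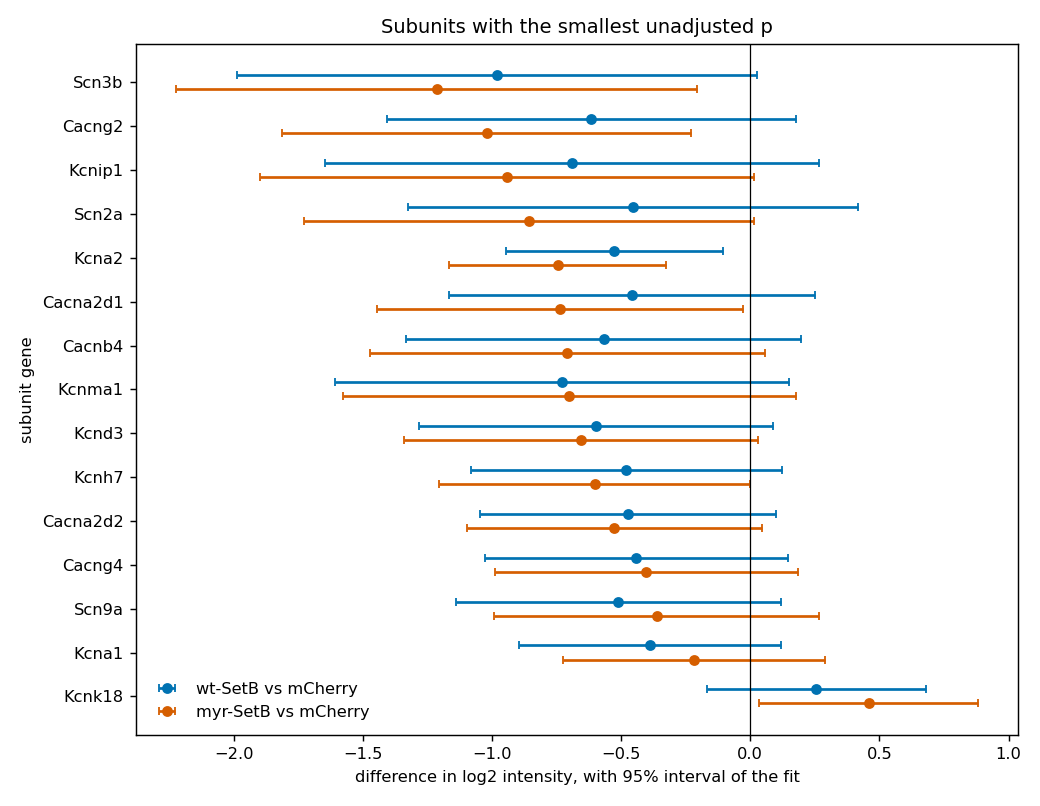
Fitted differences in log2 intensity with their 95% intervals for the 15 subunits with the smallest unadjusted p in either comparison with mCherry, wt-SetB above myr-SetB for each gene. Both intervals of Kcna2 lie below 0, and for every other subunit shown the interval of wt-SetB includes 0. Kcnk18 is the one with positive differences, 0.26 and 0.46.

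The calcium channel auxiliary subunit Cacna2d1, which carries channels to the surface of terminals and binds gabapentin, had 8.54, 8.21 and 8.34 in wt-SetB, 7.42, 8.16 and 8.67 in myr-SetB, and 9.13, 8.49 and 8.85 in mCherry. The myr-SetB arrays overlapped those of mCherry, with replicate 1 lowest. The difference was -0.74 ± 0.31 in myr-SetB, with an unadjusted limma p of 0.0434 and an adjusted p of 0.447, and -0.46 ± 0.31 in wt-SetB, or -0.30 without mCherry replicate 1. Without myr-SetB replicate 1 the myr-SetB value was -0.40, and with only replicates 2 and 3 it was -0.25. Cacna2d2, its relative, had 7.65, 7.49 and 7.24 in wt-SetB, 7.09, 7.49 and 7.64 in myr-SetB, and 8.42, 7.64 and 7.75 in mCherry, and differed by -0.47 ± 0.25 and -0.53 ± 0.25, and by -0.23 and -0.28 without mCherry replicate 1. The cytoplasmic beta subunits Cacnb1, Cacnb3 and Cacnb4, which aid folding and trafficking, all had lower means than in mCherry, with differences of -0.57 to -0.16 in wt-SetB and of -0.71 to -0.21 in myr-SetB. Cacnb4, the subunit most studied in brain, had 8.49, 8.06 and 7.85 in wt-SetB, 7.70, 8.18 and 8.10 in myr-SetB, and 9.39, 8.04 and 8.67 in mCherry. Cacnb3 had 8.09, 8.13 and 7.73 in wt-SetB, 7.52, 8.13 and 8.53 in myr-SetB, and 8.71, 8.01 and 8.47 in mCherry. Both had their highest value on mCherry replicate 1. Cacnb1 had 7.90, 7.87 and 7.83 in wt-SetB, 7.56, 7.87 and 8.02 in myr-SetB, and 8.41, 7.59 and 8.09 in mCherry. For Cacnb4 the myr-SetB value of -0.71 ± 0.34 was -0.36 without mCherry replicate 1, and the wt-SetB value of -0.57 ± 0.34 was -0.22. Without the same array Cacnb3 had -0.26 in wt-SetB and -0.18 in myr-SetB, and it had -0.07 in myr-SetB without myr-SetB replicate 1. Cacnb1, at -0.16 in wt-SetB and -0.21 in myr-SetB on all arrays, had 0.03 and -0.03 without mCherry replicate 1, and after quantile normalization both its values were above 0, at 0.10 and 0.01.

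Of the pore-forming calcium subunits, the P/Q-type gene Cacna1a and the N-type gene Cacna1b, which trigger transmitter release, had lower means in both Set-β groups on all 9 arrays, which rested on mCherry replicate 1. Cacna1a had 7.73, 7.57 and 7.44 in wt-SetB, 7.12, 7.49 and 7.63 in myr-SetB, and 8.31, 7.53 and 7.45 in mCherry. Cacna1b had 7.97, 7.84 and 7.74 in wt-SetB, 7.35, 7.84 and 8.02 in myr-SetB, and 8.70, 7.90 and 7.57 in mCherry. Cacna1a and Cacna1b differed from mCherry by -0.19 ± 0.26 and -0.21 ± 0.30 in wt-SetB and by -0.35 ± 0.26 and -0.32 ± 0.30 in myr-SetB. The highest array of both was mCherry replicate 1, and the groups overlapped on the other arrays. Without that array Cacna1a and Cacna1b were higher in wt-SetB, by 0.09 and 0.11, and in myr-SetB Cacna1a differed by -0.08 and Cacna1b by less than 0.01. With only replicates 2 and 3 the myr-SetB values were 0.07 and 0.19. The L-type gene Cacna1c differed by -0.20 and -0.12, and the T-type genes Cacna1g and Cacna1h, which open near rest, by -0.08 to 0.09 in both comparisons. The myr-SetB value of Cacna1c was 0.03 without myr-SetB replicate 1, and those of Cacna1g and Cacna1h, 0.03 each, were -0.01 without myr-SetB replicate 2. Cacna1h in wt-SetB, 0.09, was -0.01 without mCherry replicate 2. At Cacna1g the wt-SetB arrays (6.89 to 6.91) lay just below those of mCherry (6.92 to 7.05). Cacna1c had 6.57, 6.67 and 6.66 in wt-SetB, 6.43, 6.58 and 7.14 in myr-SetB, and 6.82, 6.75 and 6.92 in mCherry, and Cacna1h had 7.67, 7.50 and 7.49 in wt-SetB, 7.46, 7.59 and 7.44 in myr-SetB, and 7.77, 7.28 and 7.35 in mCherry.

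Cacng2, or stargazin, belongs to the proteins first named calcium channel gamma subunits, several of which carry AMPA-type glutamate receptors to the synapse. It had 7.47, 7.08 and 7.61 in wt-SetB, 6.46, 6.94 and 7.55 in myr-SetB, and 8.64, 7.72 and 7.64 in mCherry. No array of either Set-β group reached the lowest mCherry array, although wt-SetB replicate 3 lay just under it. The difference was -1.02 ± 0.35 in myr-SetB, with an unadjusted limma p of 0.0173 and an adjusted p of 0.447, and -0.62 ± 0.35 in wt-SetB. The wt-SetB value was -0.30 without mCherry replicate 1, and with only replicates 2 and 3 the values were -0.34 and -0.44. Cacng3, Cacng4, Cacng5 and Cacng7 had lower means as well, with differences of -0.61 to -0.36 in wt-SetB and of -0.63 to -0.38 in myr-SetB, and Cacng6 was higher by 0.22 and 0.32. For Cacng4 the wt-SetB value of -0.44 ± 0.26 was -0.18 without mCherry replicate 1 and -0.72 without mCherry replicate 2. Without mCherry replicate 1 Cacng3 had -0.03 in wt-SetB and -0.15 in myr-SetB, and Cacng7 had -0.35 and -0.12.

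Tandem-pore leak channels and inward rectifiers lay on both sides of mCherry. Of 10 tandem-pore genes, 6 were higher and 4 lower in each comparison, with medians of 0.16 in wt-SetB and 0.13 in myr-SetB. Of all tested clusters 65.5% and 63.9% were lower. Between the median and the 75th percentile of level, where most of these genes lay, 57.2% and 54.0% of clusters were lower. Kcnk18, a leak channel regulated by calcineurin, had 6.93, 6.79 and 6.96 in wt-SetB, 7.27, 7.06 and 6.96 in myr-SetB, and 6.33, 6.88 and 6.71 in mCherry. All myr-SetB arrays lay above all mCherry arrays. The difference was 0.46 ± 0.19 in myr-SetB, with an unadjusted limma p of 0.0369 and an adjusted p of 0.447, and 0.26 ± 0.19 in wt-SetB, or 0.10 without mCherry replicate 1. The myr-SetB value was 0.30 without mCherry replicate 1 and 0.22 with only replicates 2 and 3. Kcnk3, an acid-sensitive leak channel, had 6.98 to 7.08 in wt-SetB, 6.99 to 7.08 in myr-SetB and 6.82 to 6.94 in mCherry, a difference of 0.15 ± 0.14 in both comparisons. The 7 inward rectifiers that passed the filter had medians of 0.05 and 0.02, and none had an unadjusted p under 0.05.

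In wt-SetB against mCherry, the arrays did not overlap for 9 subunits that were lower (14.8%, against 26.4% of all clusters), namely Cacna1c, Cacna1g, Cacng2, Kcna1, Kcna2, Kcna6, Kcnab2, Kcnc1 and Scn3b. They did not overlap for 3 that were higher (4.92% against 7.31%), Kcnk16, Kcnk3 and Kcnn1. In myr-SetB against mCherry, 3 were lower without overlap (4.92% against 6.85%), Cacng2, Kcna2 and Kcnc2, and 4 were higher (6.56% against 4.55%), Kcnk16, Kcnk18, Kcnk3 and Kcnk4. These shares lay near or below those of all clusters, apart from the last, which rested on 4 genes.

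The size and sign of a difference went with the level of the subunit. Among the 18 members at or above the 75th percentile of all cluster means (7.57), 17 had a lower mean in wt-SetB and 18 in myr-SetB than in mCherry, with median differences of -0.46 and -0.46. All clusters of that band had medians of -0.36 and -0.36, and 73.8% and 73.9% of them were lower. Among the 43 members between the median and the 75th percentile, 23 and 21 were lower, with medians of -0.08 and 0.02, against -0.06 and -0.03 for all clusters there. Over all 61 members 65.6% were lower in wt-SetB (65.5% of all clusters) and 63.9% in myr-SetB (63.9%). The medians over the 61 were -0.19 and -0.11, against -0.18 and -0.16 for all clusters. The median in wt-SetB was -0.12 without wt-SetB replicate 3, -0.04 without mCherry replicate 1 and -0.29 with mCherry replicate 2 left out. That in myr-SetB was -0.22 without myr-SetB replicate 3, -0.05 without mCherry replicate 1 and -0.19 with mCherry replicate 2 left out. After quantile normalization, which gives every array the same range, the medians over the 61 were -0.07 and -0.03. The 15 ganglion cell markers, all lower in both Set-β groups, had median differences of -0.51 in wt-SetB and -0.50 in myr-SetB, and their part in the subunit values was not tested.

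**Figure D3:**
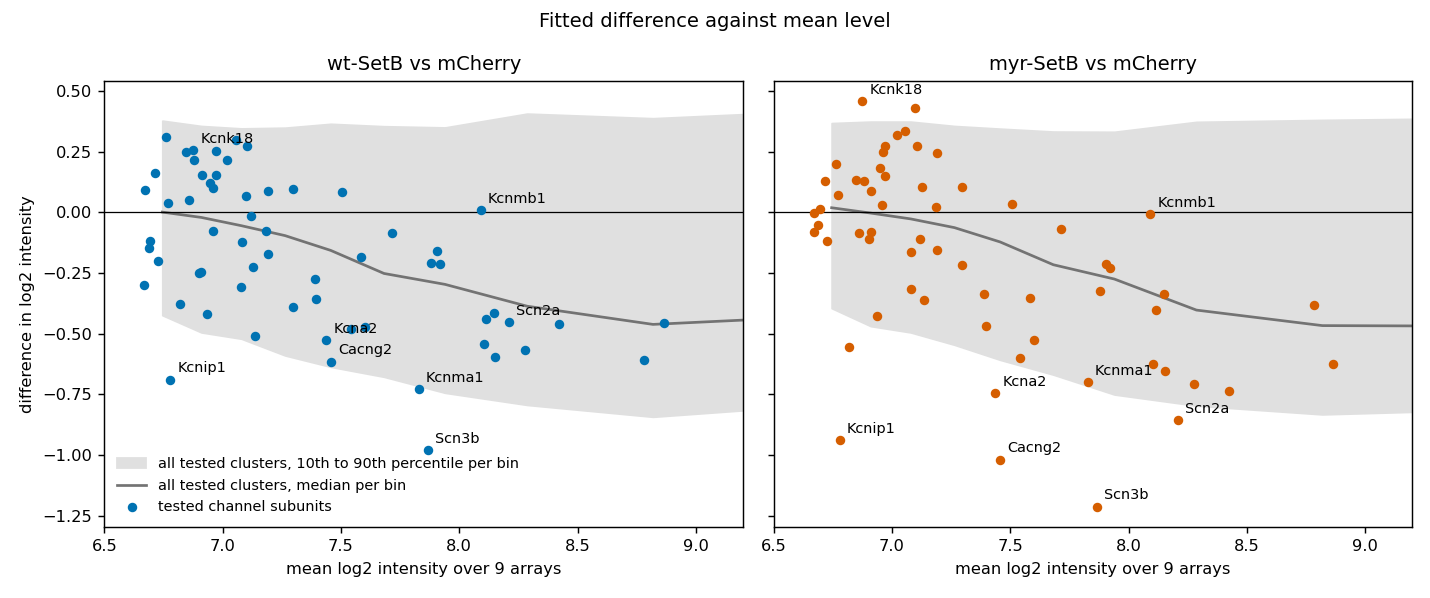
Difference in log2 intensity against mean log2 intensity over the 9 arrays, for wt-SetB against mCherry on the left and myr-SetB against mCherry on the right. Points are the 61 tested subunits, the line is the median of all tested clusters per level bin, and the shaded band runs from their 10th to their 90th percentile. Clusters of higher level have lower values in both Set-β groups, and most subunits fall inside the band.

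The extremes of the subunits gathered on particular arrays. Of the 18 members of highest level, 15 had their highest value on mCherry replicate 1 and 13 their lowest on myr-SetB replicate 1, against 34.6% and 52.1% of all clusters of that band. The median deviation of these members from their own 9-array mean was -0.52 on myr-SetB replicate 1 and 0.81 on mCherry replicate 1, and for all clusters of the band -0.48 and 0.30. Among all 61, 30 were highest on mCherry replicate 1 (29.7% of clusters) and 17 lowest on myr-SetB replicate 1 (36.9%). The range over the 9 arrays had a median of 1.53 in the upper band and 0.67 in the middle band. The widest after Scn3b were Kcnip1 (2.30), Cacng2 (2.19), Scn2a (2.14) and Kcnma1 (2.08). The part of the array ranges in these differences was not tested.

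**Figure D4:**
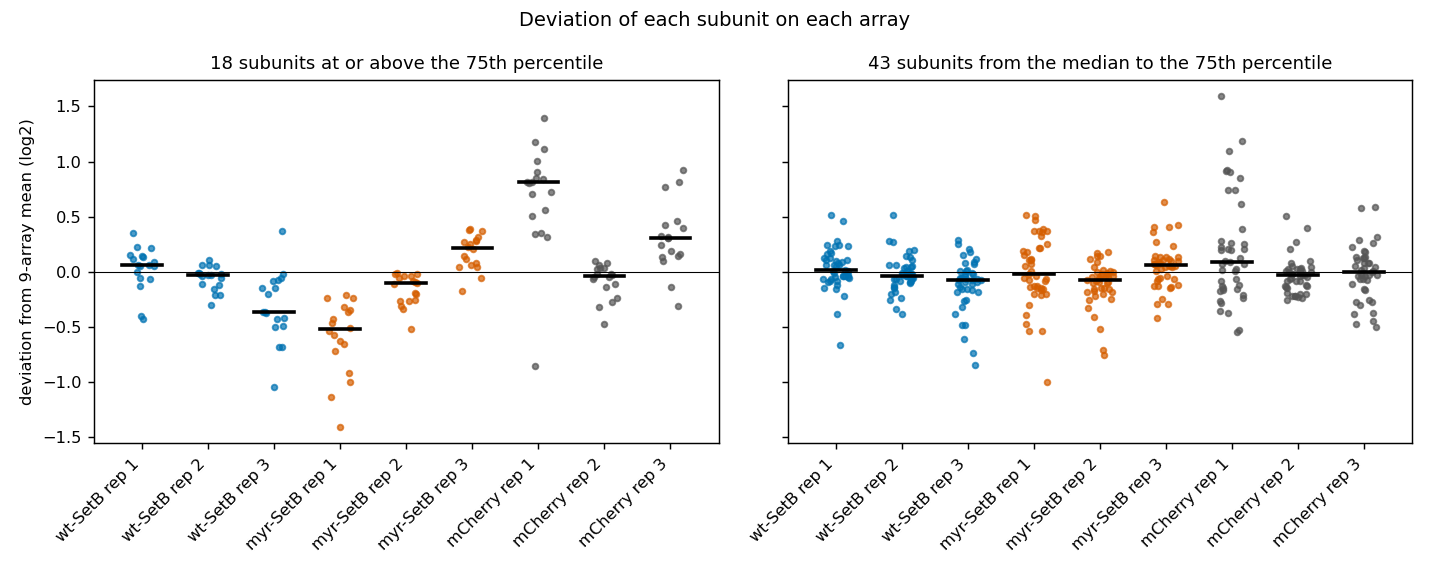
Deviation of each subunit from its 9-array mean in log2 units on each array, for the 18 subunits of highest level on the left and 43 of middle level on the right, with a bar at the median. On the left mCherry replicate 1 has a median of 0.81 and myr-SetB replicate 1 of -0.52, and on the right the medians lie near 0 on every array.

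Kcnmb1, the auxiliary subunit of the large-conductance potassium channel best known from smooth muscle, differed by replicate and not by group. Its values were 7.69, 8.14 and 8.46 in wt-SetB, 7.85, 8.08 and 8.32 in myr-SetB, and 7.24, 8.13 and 8.91 in mCherry. Replicate 1 was the lowest array of each group, and the differences from mCherry were 0.01 ± 0.39 and -0.01 ± 0.39. The summed endothelial, mural and fibroblast markers and the summed glial markers, the latter mostly through Vim, were also lowest on these arrays. Cdh5 of the first list and Pdgfra and Olig2 of the second were instead highest on replicate 1 in each group. Of the first list 9 of 12 genes had a cluster, with Dcn below the background mark on all arrays, and of the second 8 of 10. The first summed to 9.86 to 10.8 in wt-SetB, 10.03 to 10.97 in myr-SetB and 9.68 to 11.24 in mCherry, and their part in the level of Kcnmb1 was not tested. Replicate 1 was lowest in each group for 2 of 61 members, Kcna3 and Kcnmb1 (3.28%, against 7.33% of all clusters), and highest in each for Kcnip4, Kcnj13 and Kcnmb4 (4.92% against 3.38%).

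**Figure D5:**
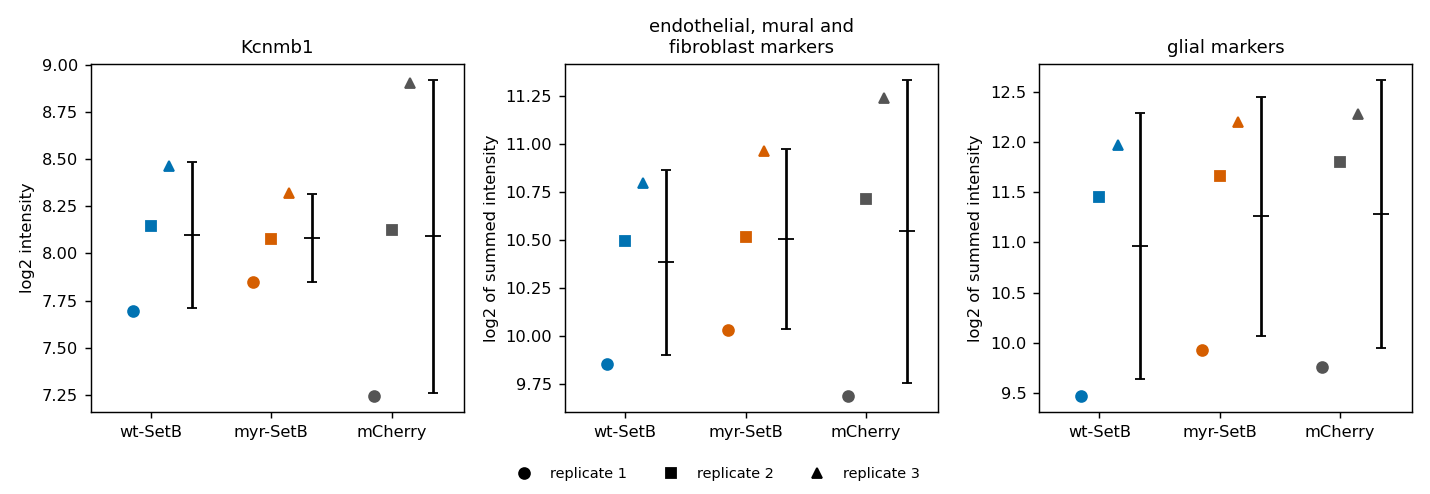
Log2 intensity of Kcnmb1 beside the log2 summed intensity of endothelial, mural and fibroblast markers and of glial markers, on the wt-SetB, myr-SetB and mCherry arrays with mean ± SD (n = 3). In each panel and group replicate 1, drawn as a circle, is the lowest array.

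The forms of Set-β were then compared with each other. In myr-SetB against wt-SetB 34 of 61 had a lower mean (55.7%, against 48.5% of all clusters), with a median of -0.01 against 0.01 for all clusters, and every adjusted p was 1. The arrays did not overlap for Kcnj14 and Kcnk18, which were higher (3.28% against 2.63%), or for Kcnj12, which was lower (1.64% against 1.76%). The 95% interval of the difference was -0.64 to 0.20 for Kcna2, -1.24 to 0.78 for Scn3b, -1.2 to 0.39 for Cacng2 and -0.99 to 0.43 for Cacna2d1, so that differences between the forms of this size could not be told from 0 with these arrays. The smallest unadjusted p belonged to Kcnn3, at 7.22, 7.14 and 7.73 in myr-SetB and 7.02, 7.15 and 6.83 in wt-SetB, where the difference was 0.36 ± 0.24, or 0.18 without myr-SetB replicate 3. Scn2b differed by 0.33 ± 0.25, or 0.09 without wt-SetB replicate 1 and 0.54 without wt-SetB replicate 3. For Cacna2d1 the value of -0.28 ± 0.31 was 0.06 without myr-SetB replicate 1 and -0.57 without myr-SetB replicate 3. Scn2a and Cacng2 had -0.40 ± 0.38 and -0.40 ± 0.35, which were -0.05 and -0.14 without myr-SetB replicate 1 and -0.72 and -0.69 without myr-SetB replicate 3. Kcna2, Kcnab2, Kcnj12, Kcnj14 and Kcnk18, also among the 10 smallest p-values, had differences of -0.22, 0.16, -0.14, 0.14 and 0.20. Kcna2 had -0.14 without wt-SetB replicate 1 and -0.36 without wt-SetB replicate 3. Kcnab2 had 0.08 and 0.30 without myr-SetB replicates 1 and 2, Kcnk18 had 0.12 without myr-SetB replicate 1, and Kcnj12 had -0.07 without wt-SetB replicate 1.

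Genes that cluster or assist these channels were set beside them. Of 28 such partners 21 passed the filter, and 17 of them had a lower mean in each comparison with mCherry (81.0%, against 65.5% of all clusters in wt-SetB and 63.9% in myr-SetB), with medians of -0.40 in wt-SetB and -0.41 in myr-SetB. At or above the 75th percentile of level, where Ank2, Sptbn1, Cntn1, Dlg4 and others lay, 73.8% and 73.9% of all clusters were lower. The medians there were -0.36 in both. Ank3, Nfasc and Dlg2 were among the partners with their highest value on mCherry replicate 1. The count of lower partners without that array was not made. Limma counted 1 of the 21 at an unadjusted p under 0.05 in each (4.76%, against 10.2% and 9.79% of all clusters), Fgf12, an intracellular factor that binds sodium channels. Fgf12 had 7.6, 7.93 and 6.64 in wt-SetB, 7.4, 7.48 and 7.29 in myr-SetB, and 8.73, 7.88 and 8.79 in mCherry, with differences of -1.08 ± 0.35 in both and an adjusted p of 0.447. All myr-SetB arrays lay below all mCherry arrays, wt-SetB replicate 2 did not, and without wt-SetB replicate 3 the wt-SetB value was -0.70. Nrcam, an adhesion molecule of the axon initial segment, differed by -0.84 ± 0.39 and -0.71 ± 0.39, or -0.52 and -0.40 without mCherry replicate 1, and -0.38 in myr-SetB without myr-SetB replicate 1. Dpp6, an auxiliary subunit of A-type channels, differed by -0.60 ± 0.33 and -0.65 ± 0.33, or -0.31 and -0.35 without mCherry replicate 1. Of 20 genes of related channel families 5 passed the filter, of which 4 had a lower mean in wt-SetB and 2 in myr-SetB than in mCherry. None of the 5 had an unadjusted limma p under 0.05, against 10.2% and 9.79% of all clusters, and 5 genes are too few to compare with such shares.

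Members below the filter were not tested, and their levels are given as mean ± SD (n = 3). Scn8a, the alpha subunit that replaces Scn2a at mature initial segments, had 6.51 ± 0.18 in wt-SetB, 6.58 ± 0.12 in myr-SetB and 6.80 ± 0.36 in mCherry. Scn1a had 5.77 ± 0.23 in wt-SetB, 5.77 ± 0.47 in myr-SetB and 5.88 ± 0.48 in mCherry. The A-type subunit Kcnd2 had 6.27 ± 0.18 in wt-SetB, 6.21 ± 0.08 in myr-SetB and 6.36 ± 0.39 in mCherry, the M-current subunit Kcnq5 6.15 ± 0.19 in wt-SetB, 6.04 ± 0.28 in myr-SetB and 6.21 ± 0.35 in mCherry, and the Shaker beta subunit Kcnab1 6.57 ± 0.20 in wt-SetB, 6.53 ± 0.04 in myr-SetB and 6.47 ± 0.14 in mCherry. For each of Kcnd2, Kcnq5 and Kcnab1 the group means lay within 0.2 log2 units of one another. The R-type gene Cacna1e had 6.70 ± 0.20 in wt-SetB, 6.60 ± 0.09 in myr-SetB and 6.61 ± 0.21 in mCherry, the L-type gene Cacna1d 6.25 ± 0.16 in wt-SetB, 6.11 ± 0.05 in myr-SetB and 6.51 ± 0.40 in mCherry, and the T-type gene Cacna1i 6.56 ± 0.23 in wt-SetB, 6.27 ± 0.23 in myr-SetB and 6.35 ± 0.16 in mCherry. Cacna2d3 had 6.39 ± 0.19 in wt-SetB, 6.51 ± 0.09 in myr-SetB and 6.61 ± 0.11 in mCherry, and Cacnb2 had 6.63 ± 0.09 in wt-SetB, 6.55 ± 0.19 in myr-SetB and 6.71 ± 0.05 in mCherry. In all, 38 of 45 subunits listed for ganglion cell excitability had a cluster of their own symbol and 27 passed the filter. Of those 27, 25 had a lower mean in wt-SetB and 23 in myr-SetB than in mCherry (92.6%, against 65.5% of all clusters, and 85.2%, against 63.9%), with median differences of -0.31 and -0.34. Over all 61 tested members the shares were 65.6% and 63.9%. The list was chosen with earlier results known, and 12 of the 27 lay at or above the 75th percentile of level. At that level 73.8% and 73.9% of all clusters were lower. Without mCherry replicate 1 the counts were 21 and 22, with medians of -0.19 and -0.12, and Cacna1a, Cacna1b, Cacnb1, Kcnc2 and Kcnip4 were then higher in wt-SetB. After quantile normalization 22 were lower in each comparison. With neither replicate 1 array of mCherry and myr-SetB, 21 were lower in wt-SetB and 16 in myr-SetB, with medians of -0.19 and -0.05. With only replicates 2 and 3 the counts were again 21 and 16, so the myr-SetB count depended on these arrays. All 121 members were set against the median of 1196 odorant receptor clusters, genes expressed chiefly in the nose and used as a mark of background signal, which lay at 5.35 to 5.93 on the 9 arrays. Of the members, 103 lay above this mark on all arrays and 18 below it on at least 1, among them Kcne4, which was below it on all 9. As the mark is a median, receptor clusters lie on both sides of it, and 256 of the 1196 passed the filter. A level above the mark therefore does not show that a gene was expressed. The share of all clusters above the mark was not counted. The families with no member below the mark on any array included every calcium channel family, the Shaker, Shaw and Shal families and the sodium channel beta subunits. The Shab subunit Kcnb2 had 6.52 ± 0.23 in wt-SetB, 6.33 ± 0.40 in myr-SetB and 6.29 ± 0.10 in mCherry, above the mark and below the filter.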

How the data were processed

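RNA of 9 samples was measured, each on 1 Affymetrix array. RMA in Affymetrix Expression Console made the expression values, per the submitters' processing notes, which give no versions. RMA combines background correction, normalization across arrays and a summary of the probes in each cluster. Per the series' design text the authors then set the values of each sample to its median, and the deposited table holds linear intensity values of 36685 transcript clusters with a median of 100 on every array. This fixes the middle of an array and not its range, and the span between the 10th and 90th percentiles was 3.82 to 4.54 on the deposited arrays. The part of this span in the values of abundant transcripts was not tested. The genome build of the array was not given in the sources used here. A platform annotation table gave 18511 clusters 1 symbol, 575 several and 17599 none.

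Intensities were log2-transformed in R 4.3.3 and fitted with limma 3.58.1 (lmFit and eBayes, group means, two-sided, 6 residual and 2.82 prior degrees of freedom), leaving out clusters with a mean log2 value under 6.65. P-values were adjusted over 18343 clusters by the Benjamini-Hochberg method, at 0.05. The fit was tested on simulated data. Precision is limited by the number of arrays, which have no read depth.

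The members and gene lists were chosen with earlier results of these data known. Named genes were, per comparison, the 10 tested members of smallest unadjusted p, the subunits of a list on ganglion cell excitability, and the 3 partners of smallest p. Members just inside and outside the filter, those without overlap and Kcnmb1 were named after their values were seen. Alternatives were the normalization, the filter, the cluster per gene, the arrays in the fit, an intensity trend, a replicate block and leaving out each array. Leaving out both the mCherry and myr-SetB replicate 1 arrays, and all replicate 1 arrays, was added after seeing the data. Promoter sequences are from RefSeq (GRCr8); all 121 members matched a RefSeq gene by identifier.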

Additional observations from a re-analysis of the deposited data

How the results depend on the processing

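No cluster passed an adjusted p of 0.05 in limma under any alternative run, in any of the 3 comparisons. Of the values of named genes under the alternatives, 617 of 642 kept their direction in wt-SetB against mCherry, 632 of 660 in myr-SetB against mCherry and 187 of 192 in myr-SetB against wt-SetB. In wt-SetB against mCherry the ranges leaving out 1 array that crossed 0 were Scn2b -0.44 to 0.02, Scn4b -0.03 to 0.12, Kcnc2 -0.58 to 0.02, Kcnip4 -0.58 to 0.01, Cacna1a -0.35 to 0.09, Cacna1b -0.45 to 0.11, Cacna1h -0.01 to 0.24, Cacnb1 -0.38 to 0.03. In myr-SetB against mCherry they were Scn2b -0.04 to 0.20, Scn4b -0.09 to 0.17, Kcna3 -0.31 to 0.08, Kcnab2 -0.16 to 0.05, Kcnip4 -0.37 to 0.32, Cacna1c -0.33 to 0.03, Cacna1g -0.01 to 0.09, Cacna1h -0.06 to 0.18. Quantile normalization turned Cacna1a (0.01), Cacna1b (0.03) and Cacnb1 (0.10) in wt-SetB and Cacnb1 (0.01) in myr-SetB, and cyclic loess turned Cacna1b (0.03) and Cacnb1 (0.08) in wt-SetB and Cacnb1 (0.03) in myr-SetB. With neither replicate 1 array of mCherry and myr-SetB, wt-SetB had Scn4b at -0.03, Kcnc2 at 0.02, Kcnip4 at 0.01, Cacna1a at 0.09, Cacna1b at 0.11 and Cacnb1 at 0.03. With only replicates 2 and 3 it had Scn2b at 0.11, Scn4b at -0.04, Kcnc2 at 0.09, Cacna1a at 0.01, Cacna1b at 0.05 and Cacnb1 at 0.01. In myr-SetB both of these settings gave Kcna1 0.05, Kcnip4 0.01, Cacna1a 0.07, Cacna1b 0.19, Cacna1c 0.02, Cacnb1 0.10 and Cacnb3 0.09. Between the forms Cacna2d1 turned to 0.06 without myr-SetB replicate 1 (range leaving out 1 array -0.57 to 0.06) and with neither replicate 1 array of mCherry and myr-SetB, and, with only replicates 2 and 3, Cacna2d1 to 0.14, Scn2a to 0.14 and Scn2b to -0.02. The count of subunits at an unadjusted p under 0.05 in wt-SetB against mCherry, 1 as reported, was 0 after quantile normalization, after cyclic loess and with a 75th-percentile filter, and 2 with only the 2 groups compared or only replicates 2 and 3; leaving out 1 array gave 0 to 8. In myr-SetB against mCherry, 5 as reported, it was 2 with the filter at the 75th percentile, 3 with only the 2 groups compared, 2 with neither replicate 1 array and 2 with only replicates 2 and 3; leaving out 1 array gave 1 to 13. In myr-SetB against wt-SetB it stayed at 0. The median subunit difference was -0.46 in both comparisons with mCherry with the filter at the 75th percentile, which tests fewer genes, and -0.04 in wt-SetB with neither replicate 1 array. Leaving out 1 array gave medians of -0.29 to -0.04 in wt-SetB, -0.22 to -0.05 in myr-SetB and -0.08 to 0.03 between the forms, where only replicates 2 and 3 gave 0.10. The cause was not tested. Same-numbered arrays of different groups had correlations of their deviations of -0.07 to 0.38, all positive apart from mCherry replicate 1 with myr-SetB replicate 1. Differently numbered arrays had -0.40 to 0.36. Not every pair of the same number exceeded 0.1, a cut chosen here, so the numbers were not taken as pairing. Summed glial, mural and microglial markers were nevertheless lowest on the replicate 1 array of every group, the glial sum mostly through Vim. The labels do not tell if a number marks a shared preparation. With a replicate block 1, 4 and 0 subunits were at an unadjusted p under 0.05 and 0 past the adjusted threshold. Precision is limited by 3 arrays a group and, for low members, by signal near that of odorant receptors.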
